A study of Mus musculus with 8 samples.

Results

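The genes described here carry out and regulate glucose handling in the liver: gluconeogenesis, glycolysis, fructose entry, glycogen storage, the insulin response, and malate and pyruvate conversion. The list held 33 genes, grouped by their textbook roles. A gene was measured when a bead array probe annotated to its symbol had a detection p of 0.05 or less, against the negative control beads, in at least 1 of the 8 arrays, and each gene was read from its detected probe with the highest mean. By this rule 28 of the 33 genes were measured, among 9640 named genes in all, and 25 of the 28 were detected in all 8 arrays. Gpi1, Pfkfb1, Eno1, Pgm2 and Irs1 were not measured under a name here. Gene names were available only for probes that the authors kept in their own value table, and 5210 tested probes had no name. These genes may therefore have been detected without a name.

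RNA came from hepatocytes of Gata4 fl/fl mice, strain CD1 x 129S1/SvImJ, at 2 to 3 months after birth. AAV-Cre animals had been given AAV8-Tbg-Cre intravenously, a vector for the recombinase that cuts out the loxP-flanked part of Gata4, and AAV-GFP animals had been given AAV8-Tbg-GFP, so that floxed alleles and viral vector were common to both groups. Cells were taken 2 weeks later by Liberase perfusion and a Percoll gradient, with 4 AAV-Cre and 4 AAV-GFP samples and 1 array each. The Tbg promoter is active in hepatocytes, so other liver cells in the preparation would keep Gata4. The labels state neither feeding state nor sex, and do not say that each sample was a separate mouse. The p-values therefore cover only the spread among these samples, which may be technical in part.

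The liver stores glucose as glycogen after a meal and releases glucose between meals, first from glycogen and then by gluconeogenesis from lactate, glycerol and amino acids. Insulin, acting through its receptor, the insulin receptor substrates and the kinase Akt, keeps the forkhead factor FOXO1 out of the nucleus and lowers transcription of Pck1, G6pc and Igfbp1. Glucagon acts through cyclic AMP and protein kinase A and raises transcription of Pck1 and G6pc. These transcripts therefore move within hours with feeding in normal liver.

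The promoters of 4 genes are shown because they hold short motifs known from these controls or the motif bound by GATA factors. Each is the 250 bases before the annotated start, on the plus strand of GRCm38.p6, taken from RefSeq. Capitals mark matches, on either strand, to the GATA motif (searched as AGATAA with its variant AGATAG, and as TGATAA with its variant TGATAG), the insulin response motif CAAAACA, the forkhead motif GTAAACA and the cyclic AMP response motif (TGACGTCA or TTACGTCA).
Pck1: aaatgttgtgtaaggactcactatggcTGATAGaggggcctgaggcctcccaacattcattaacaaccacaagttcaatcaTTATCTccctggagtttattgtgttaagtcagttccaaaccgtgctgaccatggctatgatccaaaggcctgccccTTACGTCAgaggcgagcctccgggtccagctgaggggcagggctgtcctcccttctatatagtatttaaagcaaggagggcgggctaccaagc
G6pc: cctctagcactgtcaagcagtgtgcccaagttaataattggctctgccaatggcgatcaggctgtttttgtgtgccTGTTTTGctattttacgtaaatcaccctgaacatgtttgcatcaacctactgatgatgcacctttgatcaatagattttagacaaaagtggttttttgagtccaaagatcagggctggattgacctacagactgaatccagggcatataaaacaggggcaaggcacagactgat
Igfbp1: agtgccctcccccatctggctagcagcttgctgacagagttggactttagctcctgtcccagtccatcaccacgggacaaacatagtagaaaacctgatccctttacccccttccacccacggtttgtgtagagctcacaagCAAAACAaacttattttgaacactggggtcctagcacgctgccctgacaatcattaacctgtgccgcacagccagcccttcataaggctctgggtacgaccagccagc
Gckr: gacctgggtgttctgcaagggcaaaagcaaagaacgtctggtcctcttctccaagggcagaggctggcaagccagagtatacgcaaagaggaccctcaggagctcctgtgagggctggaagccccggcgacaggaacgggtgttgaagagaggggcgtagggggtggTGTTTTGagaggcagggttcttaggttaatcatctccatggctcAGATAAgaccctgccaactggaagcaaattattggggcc

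The Pck1 window is chr2:173152823-173153072, that of G6pc chr11:101367466-101367715, that of Igfbp1 chr11:7197537-7197786 and that of Gckr chr5:31297313-31297562. Counted back from the start, the Pck1 window held GATA matches at -223 to -218 and at -169 to -164 and the cyclic AMP response match at -93 to -86. The insulin response motif was matched at -174 to -168 in G6pc, at -108 to -102 in Igfbp1 and at -83 to -77 in Gckr, and Gckr also held a GATA match at -39 to -34. No marked matches overlapped in these windows.

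Of the 28 measured genes 25 had such a window, and 8 of them, Aldoa, Fbp1, Gapdh, Gckr, Pck1, Pcx, Pklr and Ppp1r3c, held a GATA match in at least 1 annotated promoter. A GATA match was in 26.5% of all 32851 promoter windows. The insulin response motif was in 4 of the 25 genes, G6pc, Gckr, Igfbp1 and Irs2, and in 5.56% of all windows. The cyclic AMP response motif was in Ldha and Pck1 and in 1.98% of all windows, and the forkhead motif was in 0 of the 25 and in 3.17% of all windows. The counts are by gene, over all its annotated promoters, and the percentages are by window, so they are not directly comparable. A match describes the letters of the window and not binding.

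Some arrays stood apart. Xist, the RNA of the inactive X chromosome, reached 13.33 and 13.78 (normalized log2 signal) in replicates 1 and 4 of AAV-GFP. It lay between 5.07 and 5.33 in the other 6 arrays. Uty, on the Y chromosome, was lowest in the same 2 arrays, at 6.084 and 5.929, and lay between 7.088 and 7.557 elsewhere. Kdm5d, also Y-linked, was low there (5.474 and 5.421) but also in samples 3 and 4 of AAV-Cre (5.96 and 5.369). By Xist and Uty, 2 AAV-GFP samples and no AAV-Cre sample read as female, so sex may differ between the groups. The number of detected probes was 14788 to 16263 in AAV-Cre arrays and 15406 to 16387 in AAV-GFP arrays, and AAV-Cre replicates 3 and 4 had the fewest. Where it matters, values with these arrays left out stand beside the results. Hepatocyte markers summed to 101000 to 130000 intensity units in AAV-Cre arrays and 109000 to 111000 in AAV-GFP arrays, with 7 of 10 listed markers measured. Of these 7, 2 had a higher mean in AAV-Cre, the median log2 difference was -0.08, and Tat was detected in 0 AAV-Cre arrays and 1 AAV-GFP array. All 9 measured of 10 listed sinusoidal endothelial markers, and all 8 measured of 11 listed Kupffer cell and macrophage markers, had higher means in AAV-Cre arrays, by medians of 0.52 and 0.51 on the log2 scale, although 0 passed the test. The summed endothelial signal was 6610 to 9670 in AAV-Cre arrays and 4470 to 9220 in AAV-GFP arrays, and the summed Kupffer signal was 1800 to 2650 in AAV-Cre arrays and 1100 to 1900 in AAV-GFP arrays. No endothelial marker was undetected throughout a group, and Marco was undetected in all AAV-GFP arrays. For 2 of the 8 Kupffer cell and macrophage markers, C1qb and Csf1r, all AAV-Cre arrays lay above all AAV-GFP arrays. Of 6 listed cholangiocyte markers 2 were measured, Sox9 and Cldn7, with means higher in AAV-Cre by 1.19 and 0.21. All AAV-Cre arrays lay above all AAV-GFP arrays for Sox9, though a second Sox9 probe overlapped. Of 8 listed stellate cell and fibroblast markers 5 were measured, 3 with a higher mean in AAV-Cre, and the median was 0.16. The groups did not overlap in 4.81% of all features. The part of these markers in the results below was not tested, and fewer cells of a type and less RNA per cell cannot be told apart in such samples. Gata4 had 1 probe, which was near background in both groups and does not check the excision.

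No difference in a glucose metabolism transcript passed the test between AAV-Cre and AAV-GFP hepatocytes. By limma with Benjamini-Hochberg adjustment over 14850 features, 0 of the 28 genes passed an adjusted p of 0.25, where 0.00673% of all features, a single one, did. At an unadjusted p under 0.05 there was 1 of 28, Pgk1 with the lower mean in AAV-Cre, which is 3.57% beside 9.06% of all features (4.99% higher and 4.07% lower). Without replicates 1 and 4 of AAV-GFP there were 0 of 28 beside 5.89% of all features, and without replicates 3 and 4 of AAV-Cre also 0 of 28 beside 4.05%. In 0 of the 28 did the AAV-Cre arrays lie wholly above or below the AAV-GFP arrays, beside 4.81% of all features (3.10% higher and 1.70% lower). The mean was higher in AAV-Cre for 17 genes and lower for 11, with a median log2 difference (AAV-Cre minus AAV-GFP) of 0.07 beside 0.04 over all features, of which 56.6% were higher. Adjusted p for the 28 lay between 0.535 and 0.975.

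How large a difference the arrays could have missed varied by gene. For 11 of the 28 (39.3%) the 95% confidence interval lay within 1.5-fold in either direction, beside 38.2% of all features and 48.5% of those detected in all 8 arrays. These were Fbp1, Gckr, Pfkl, Tpi1, Gapdh, Pgam1, Ldha, Khk, Pygl, Ppp1r3b and Insr. For the other 17, Pck1 and G6pc among them, the interval reached past 1.5-fold on at least 1 side. These counts use the brighter probe of each gene. Among the 11, log2 intervals of second probes also reached past 1.5-fold, where every detected probe was tested. They were -0.999 to 0.363 for Ppp1r3b, -0.084 to 0.603 for Khk, -1.424 to 0.259 for Pgam1 and -0.784 to 0.039 for Pfkl. The second probes of Pgam1 and Pfkl were detected in only some arrays. That of Tpi1 stayed within 1.5-fold.

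**Figure D1:**
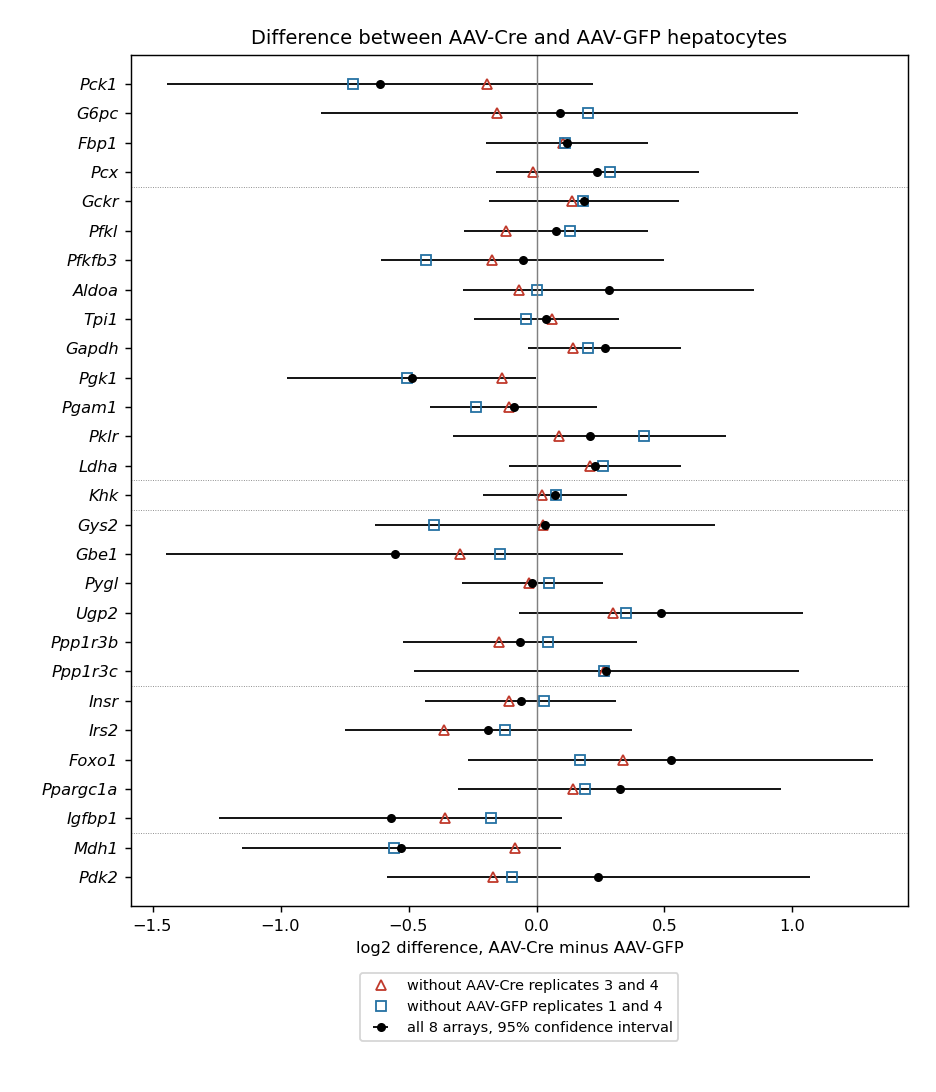
Log2 difference between AAV-Cre and AAV-GFP hepatocytes (x axis, AAV-Cre minus AAV-GFP) for the 28 measured genes, grouped by role with dotted lines. Black points use all 8 arrays and bars are 95% confidence intervals from limma, triangles leave out AAV-Cre replicates 3 and 4, and squares leave out AAV-GFP replicates 1 and 4. Only the Pgk1 bar ends short of 0.

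Gluconeogenesis was represented by Pck1, G6pc, Fbp1 and Pcx. Pck1 encodes the cytosolic phosphoenolpyruvate carboxykinase, which makes phosphoenolpyruvate from oxaloacetate. On the normalized log2 scale it read 10.90, 10.84, 10.01 and 10.05 in AAV-Cre replicates 1 to 4, against 10.22, 10.76, 11.58 and 11.69 in AAV-GFP replicates 1 to 4. The lowest arrays were AAV-Cre replicates 3 and 4 and the highest AAV-GFP replicates 3 and 4, while AAV-Cre replicates 1 and 2 lay above AAV-GFP replicates 1 and 2, so that the groups overlapped. The AAV-Cre mean was 0.654 of the AAV-GFP mean, a log2 difference of -0.61 ± 0.37 (SE, n = 4 per group, 95% interval -1.443 to 0.220, adjusted p = 0.563, limma). The difference was -0.19 without AAV-Cre replicates 3 and 4, and leaving out AAV-GFP replicates 1 and 4 made it -0.72. Without AAV-GFP replicate 1 alone it was -0.89, with an unadjusted p under 0.05.

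A second Pck1 probe was read as well. It gave 9.72, 9.54, 8.42 and 8.63 in AAV-Cre replicates 1 to 4, against 9.36, 9.69, 10.63 and 10.43 in AAV-GFP replicates 1 to 4. The order of the arrays was close to that of the brighter probe, with AAV-Cre replicates 3 and 4 lowest and AAV-GFP replicates 3 and 4 highest. Its log2 difference was -0.95 ± 0.38 (SE, 95% interval -1.808 to -0.092) by limma where every detected probe was tested. The unadjusted p of this probe was 0.0337 and its adjusted p 0.518 by limma, and it is not in the counts above, which use the brighter probe. Its difference was -0.40 without AAV-Cre replicates 3 and 4, and -1.08 when replicates 1 and 4 of AAV-GFP were left out.

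G6pc encodes the catalytic subunit of glucose-6-phosphatase, which releases free glucose and is the last step of both gluconeogenesis and glycogen breakdown. Its log2 signal was 13.41, 13.30, 13.89 and 13.78 in AAV-Cre replicates 1 to 4, against 14.52, 12.76, 14.03 and 12.71 in AAV-GFP replicates 1 to 4. All AAV-Cre arrays lay inside the range of the AAV-GFP arrays, which were 2 high and 2 low. The AAV-Cre arrays spanned 1.51-fold and the AAV-GFP arrays 3.51-fold, and the log2 difference was 0.09 ± 0.41 (SE, 95% interval -0.841 to 1.021, adjusted p = 0.952, limma). It was -0.15 without AAV-Cre replicates 3 and 4.

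Pck1 and G6pc did not follow each other across the arrays. Among AAV-Cre arrays, replicates 3 and 4 had the lower Pck1 and the higher G6pc. Among AAV-GFP arrays, replicate 1 had the lowest Pck1 and the highest G6pc. Replicate 4 had the highest Pck1 in the brighter probe and the lowest G6pc. The second Pck1 probe was highest in replicate 3 (10.63, against 10.43 in replicate 4). G6pc was nearly as low in replicate 2 (12.76) as in replicate 4 (12.71).

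The other gluconeogenic enzymes varied less within groups. Fbp1, the fructose-1,6-bisphosphatase of liver, had log2 signals of 15.06 to 15.55 in AAV-Cre and 15.07 to 15.32 in AAV-GFP, a difference of 0.12 ± 0.14 (SE, 95% interval -0.198 to 0.436). Pcx, the mitochondrial pyruvate carboxylase that feeds carbon into the pathway, had 11.26, 11.52, 11.82 and 11.97 in AAV-Cre replicates 1 to 4, against 11.34, 11.44, 11.27 and 11.58 in AAV-GFP replicates 1 to 4. The highest of all 8 arrays were AAV-Cre replicates 3 and 4, and the other AAV-Cre arrays lay among or below the AAV-GFP arrays. The Pcx difference was 0.24 ± 0.18 (SE, adjusted p = 0.628, limma), and -0.02 without AAV-Cre replicates 3 and 4.

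**Figure D2:**
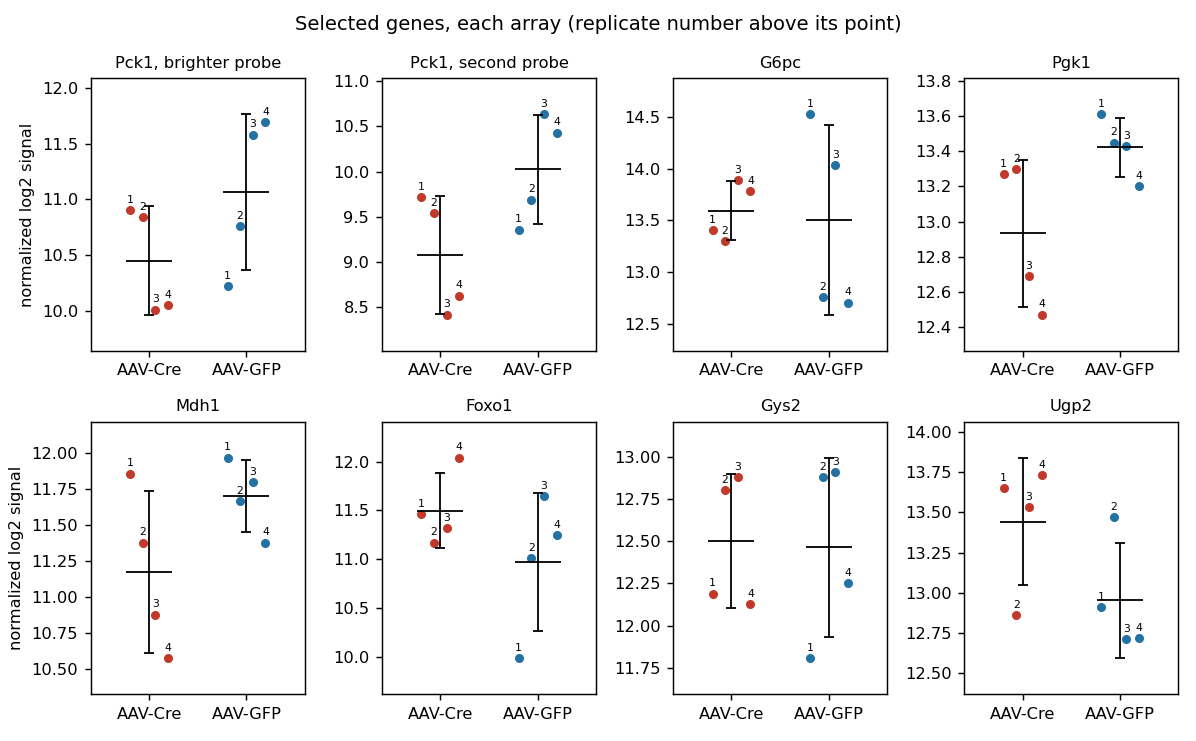
Normalized log2 signal (y axes, each with its own range) of Pck1 in both probes, G6pc, Pgk1, Mdh1, Foxo1, Gys2 and Ugp2 in each AAV-Cre and AAV-GFP array, with the replicate number above each point. Horizontal lines and bars are the mean and SD of 4 arrays. The groups overlap in every panel, and AAV-Cre replicates 3 and 4 lie lowest in both Pck1 panels, in Pgk1 and in Mdh1.

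Glycolysis had 10 of its 13 listed genes measured, 7 with a higher and 3 with a lower mean in AAV-Cre, and a median log2 difference of 0.13. Pgk1, the phosphoglycerate kinase that makes the first ATP of the pathway, had log2 signals of 13.27, 13.30, 12.69 and 12.47 in AAV-Cre replicates 1 to 4, against 13.61, 13.45, 13.43 and 13.20 in AAV-GFP replicates 1 to 4. AAV-Cre replicates 3 and 4 were the lowest arrays, and the other AAV-Cre arrays lay above the lowest AAV-GFP array. The difference was -0.49 ± 0.21 (SE, n = 4 per group, 95% interval -0.974 to -0.002, adjusted p = 0.535, limma). It was -0.13 without AAV-Cre replicates 3 and 4, against -0.51 without AAV-GFP replicates 1 and 4. Its unadjusted p was over 0.05 when any of AAV-Cre replicates 3 and 4 or AAV-GFP replicates 1, 2 and 3 was left out. Pgk1 is on the X chromosome.

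The neighbouring step went the other way in its mean. Gapdh, the glyceraldehyde-3-phosphate dehydrogenase that stands just before Pgk1, had 14.78 to 15.08 in AAV-Cre arrays, against 14.49 to 14.81 in AAV-GFP arrays. The groups overlapped narrowly, since AAV-GFP replicate 2 lay between AAV-Cre replicates 1 and 2. The difference was 0.27 ± 0.13 (SE, 95% interval -0.032 to 0.564, adjusted p = 0.535, limma), and 0.14 without AAV-Cre replicates 3 and 4. AAV-Cre replicates 3 and 4 were the highest arrays for Gapdh and the lowest for Pgk1.

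Of the upper steps, Gckr encodes the protein that holds glucokinase in the nucleus of hepatocytes. It had 12.58 to 13.05 in AAV-Cre and 12.38 to 12.95 in AAV-GFP, a log2 difference of 0.19 ± 0.16 (SE, 95% interval -0.184 to 0.558). Pfkl, the liver phosphofructokinase, had a log2 difference of 0.08 ± 0.16 (SE), which was -0.12 without AAV-Cre replicates 3 and 4, and its second probe, detected in 0 AAV-Cre and 2 AAV-GFP arrays, had -0.37. Pfkfb3, which makes the activator fructose-2,6-bisphosphate, was detected in 0 AAV-Cre arrays and 1 AAV-GFP array, so that its difference of -0.05 ± 0.24 (SE) is one between values near background.

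Aldoa, an aldolase better known from muscle than from liver, had 10.98, 10.99, 11.86 and 11.51 in AAV-Cre replicates 1 to 4, against 10.83, 11.19, 11.48 and 10.71 in AAV-GFP replicates 1 to 4. The groups overlapped, with AAV-Cre replicates 3 and 4 highest. Its difference of 0.28 ± 0.25 (SE) was -0.07 without AAV-Cre replicates 3 and 4, and 0.001 when replicates 1 and 4 of AAV-GFP were left out. Tpi1, the triosephosphate isomerase, was among the steadiest genes with 14.39 to 14.67 in AAV-Cre and 14.42 to 14.69 in AAV-GFP and a difference of 0.04 ± 0.12 (SE), while its second probe had -0.19.

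Pgam1, a phosphoglycerate mutase, differed by -0.09 ± 0.14 (SE, 95% interval -0.415 to 0.236). Pklr, the liver pyruvate kinase, which rises with carbohydrate feeding in normal liver, had 9.45, 9.31, 9.93 and 9.31 in AAV-Cre replicates 1 to 4, against 9.23, 9.39, 8.77 and 9.78 in AAV-GFP replicates 1 to 4. AAV-Cre replicate 3 was the highest array and AAV-GFP replicate 3 the lowest, with the rest mixed, and the difference was 0.21 ± 0.23 (SE). It was 0.04 without AAV-GFP replicate 3 and 0.37 without AAV-GFP replicate 4. It was 0.09 without AAV-Cre replicates 3 and 4, and 0.42 when replicates 1 and 4 of AAV-GFP were left out. Ldha, the lactate dehydrogenase subunit that joins pyruvate and lactate, differed by 0.23 ± 0.15 (SE, 95% interval -0.108 to 0.564, adjusted p = 0.584, limma), with arrays that spanned 1.35-fold in AAV-Cre and 1.29-fold in AAV-GFP. Khk, the ketohexokinase through which fructose enters, differed by 0.07 ± 0.12 (SE) and its arrays spanned 1.23-fold in AAV-Cre and 1.21-fold in AAV-GFP.

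**Figure D3:**
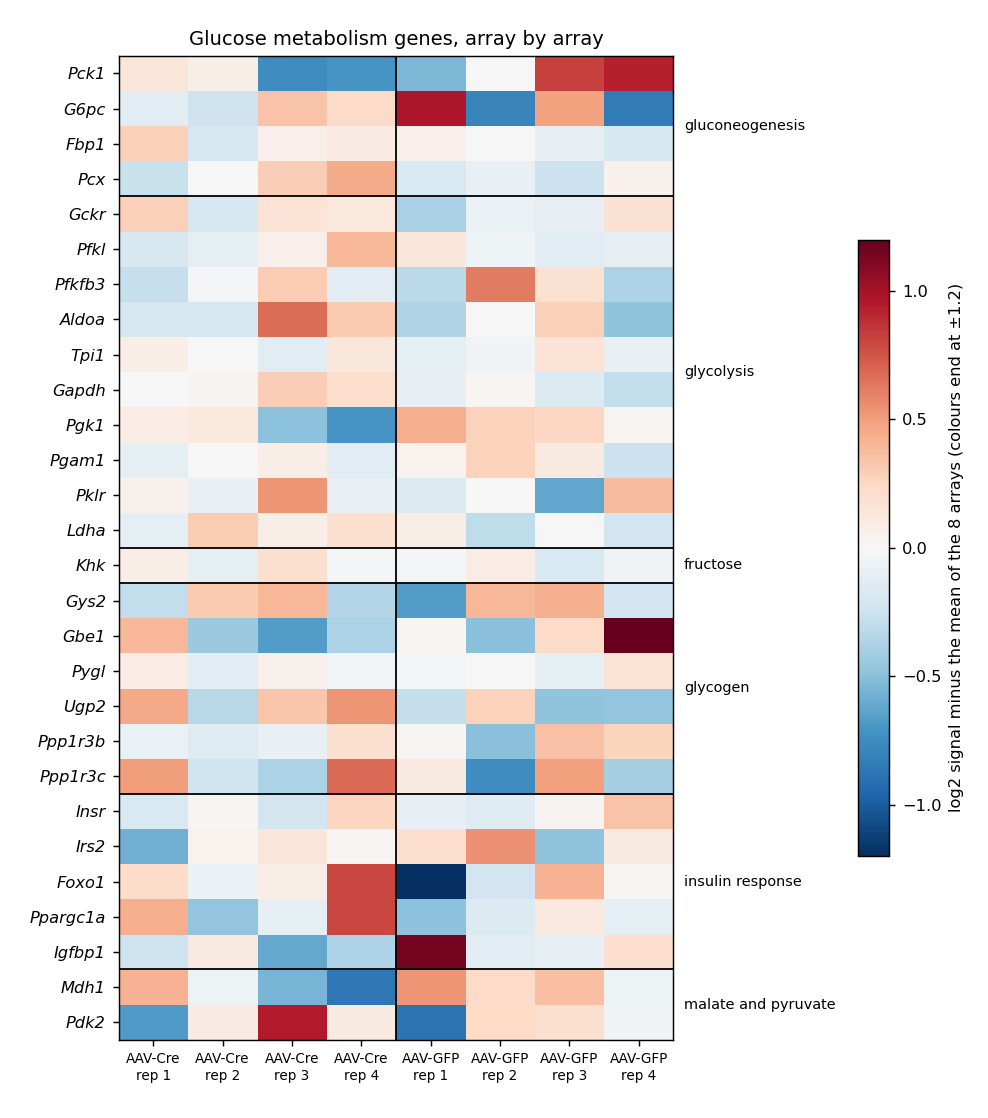
Normalized log2 signal of each of the 28 genes minus its mean over the 8 arrays (colour, red above and blue below the mean) in AAV-Cre replicates 1 to 4 (left) and AAV-GFP replicates 1 to 4 (right), by role. AAV-Cre replicates 3 and 4 are the lowest arrays for Igfbp1, Mdh1, Pck1 and Pgk1 and the highest for Aldoa, Gapdh and Pcx, and no gene separates the groups.

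Glycogen genes were 6 of 7 measured, 3 with a higher and 3 with a lower mean in AAV-Cre. Ugp2, which makes the UDP-glucose from which glycogen is built, had 13.65, 12.86, 13.53 and 13.73 in AAV-Cre replicates 1 to 4, against 12.91, 13.47, 12.71 and 12.72 in AAV-GFP replicates 1 to 4. In each group 1 array lay on the side of the other: AAV-Cre replicate 2 was low and AAV-GFP replicate 2 was high. The difference was 0.49 ± 0.24 (SE, n = 4 per group, 95% interval -0.068 to 1.043, adjusted p = 0.535, limma). It ranged between 0.39 and 0.68 as each array was left out, and its unadjusted p was under 0.05 without AAV-Cre replicate 2 or AAV-GFP replicate 2. It was 0.30 without AAV-Cre replicates 3 and 4, and 0.35 when replicates 1 and 4 of AAV-GFP were left out.

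Gys2, the liver glycogen synthase, had 12.19, 12.80, 12.88 and 12.13 in AAV-Cre replicates 1 to 4, against 11.81, 12.88, 12.91 and 12.25 in AAV-GFP replicates 1 to 4. Replicates 1 and 4 were low and replicates 2 and 3 high in both groups, and the group means were nearly equal, with a difference of 0.03 ± 0.29 (SE, 95% interval -0.630 to 0.698). The second Gys2 probe had the same low and high arrays, 11.72, 12.22, 12.59 and 11.87 in AAV-Cre replicates 1 to 4, against 11.43, 12.40, 12.32 and 11.74 in AAV-GFP replicates 1 to 4. Without AAV-GFP replicates 1 and 4 the difference of the brighter probe was -0.40.

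Pygl, the liver glycogen phosphorylase that releases glucose from glycogen, had the smallest spread of the 28 genes, 15.48 to 15.71 in AAV-Cre and 15.51 to 15.79 in AAV-GFP. Its difference was -0.02 ± 0.12 (SE, 95% interval -0.290 to 0.259). The probe was bright, at up to 82.9% of the highest signal on its array before normalization.

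Ppp1r3b and Ppp1r3c encode subunits that bring protein phosphatase 1 to glycogen, where it activates glycogen synthase. Ppp1r3c had 14.76, 14.02, 13.88 and 14.94 in AAV-Cre replicates 1 to 4, against 14.37, 13.52, 14.75 and 13.86 in AAV-GFP replicates 1 to 4. Each group held 2 high and 2 low arrays, the spans being 2.09-fold in AAV-Cre and 2.35-fold in AAV-GFP, and the difference was 0.27 ± 0.33 (SE). It was 0.07 without AAV-GFP replicate 2 and 0.48 without AAV-GFP replicate 3. Ppp1r3b differed by -0.06 ± 0.20 (SE) and its second probe by -0.32. Gbe1, the glycogen branching enzyme, was detected in 1 AAV-Cre and 1 AAV-GFP array, and its difference of -0.55 ± 0.39 (SE) was -0.19 without AAV-GFP replicate 4, the array with the highest value.

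The insulin response genes were 5 of 6 measured. Foxo1, the forkhead factor that insulin restrains, had 11.46, 11.17, 11.32 and 12.04 in AAV-Cre replicates 1 to 4, against 9.99, 11.01, 11.65 and 11.25 in AAV-GFP replicates 1 to 4. AAV-Cre replicate 4 was above the other arrays and AAV-GFP replicate 1 far below them, and the rest overlapped. The difference was 0.52 ± 0.35 (SE, n = 4 per group, 95% interval -0.266 to 1.313, adjusted p = 0.592, limma), the highest of the 28 genes, and was 0.20 without AAV-GFP replicate 1. It was 0.34 without AAV-Cre replicates 3 and 4, and 0.17 when replicates 1 and 4 of AAV-GFP were left out. A second Foxo1 probe, detected in 1 AAV-Cre and 0 AAV-GFP arrays, differed by 0.005.

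Ppargc1a, the coactivator that joins FOXO1 in raising gluconeogenic genes during fasting, had 10.29, 9.38, 9.74 and 10.66 in AAV-Cre replicates 1 to 4, against 9.36, 9.69, 9.97 and 9.75 in AAV-GFP replicates 1 to 4. AAV-Cre replicates 1 and 4 were the highest arrays and AAV-Cre replicate 2 was near the bottom. The difference was 0.33 ± 0.28 (SE, adjusted p = 0.672, limma) and 0.11 without AAV-Cre replicate 4.

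Igfbp1, a secreted binding protein for insulin-like growth factors that insulin lowers in normal liver, was detected in 1 AAV-Cre and 2 AAV-GFP arrays. Its log2 signal was 5.87, 6.22, 5.50 and 5.74 in AAV-Cre replicates 1 to 4, against 7.26, 5.99, 6.02 and 6.32 in AAV-GFP replicates 1 to 4. AAV-GFP replicate 1 stood above all other arrays, which lay near background. The difference was -0.57 ± 0.29 (SE, adjusted p = 0.536, limma) and -0.28 without AAV-GFP replicate 1.

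The receptor and its adaptor were close in their means. Insr, the insulin receptor, differed by -0.06 ± 0.16 (SE, 95% interval -0.435 to 0.312), with 13.34 to 13.82 in AAV-Cre and 13.41 to 13.90 in AAV-GFP. Irs2, the adaptor through which the receptor reaches phosphatidylinositol 3-kinase, had 9.40 to 10.12 in AAV-Cre and 9.49 to 10.52 in AAV-GFP, a difference of -0.19 ± 0.25 (SE). Pck1, G6pc and Igfbp1, which insulin lowers in normal liver, did not share their highest array. AAV-GFP replicate 1 was the highest array for G6pc and Igfbp1. For Pck1 it was AAV-GFP replicate 4 in the brighter probe and AAV-GFP replicate 3 in the second.

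Malate and pyruvate conversion was represented by Mdh1 and Pdk2. Mdh1, the cytosolic malate dehydrogenase that returns oxaloacetate to the cytosol for Pck1, had 11.86, 11.38, 10.88 and 10.58 in AAV-Cre replicates 1 to 4, against 11.97, 11.67, 11.80 and 11.38 in AAV-GFP replicates 1 to 4. Here too AAV-Cre replicates 3 and 4 were the lowest arrays, and AAV-Cre replicate 1 was among the highest. The difference was -0.53 ± 0.27 (SE, 95% interval -1.152 to 0.096, adjusted p = 0.538, limma), and it was -0.08 without AAV-Cre replicates 3 and 4. The second Mdh1 probe had 9.06, 8.59, 7.03 and 7.34 in AAV-Cre replicates 1 to 4, against 8.91, 8.78, 7.93 and 8.37 in AAV-GFP replicates 1 to 4, with the same AAV-Cre arrays lowest.

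Pdk2, the kinase that switches off pyruvate dehydrogenase, had 8.51, 9.29, 10.14 and 9.30 in AAV-Cre replicates 1 to 4, against 8.31, 9.43, 9.38 and 9.15 in AAV-GFP replicates 1 to 4. Replicate 1 was the lowest array of both groups and AAV-Cre replicate 3 the highest of all. The difference was 0.24 ± 0.36 (SE), and it was -0.17 without AAV-Cre replicates 3 and 4, and -0.10 when replicates 1 and 4 of AAV-GFP were left out.

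Over the 28 genes, AAV-Cre replicates 3 and 4 were the lowest of all 8 arrays for 4, Igfbp1, Mdh1, Pck1 and Pgk1 (14.3% of the 28), and the highest for 3, Aldoa, Gapdh and Pcx (10.7%). Over all 14850 features these shares were 12.3% and 16.6%. The same arrays had the fewest detected probes, and the part of this in the differences was not tested.

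The within-group SD of the log2 signal was widest for G6pc at 0.68, Gbe1 at 0.65, Pck1 and Pdk2 at 0.60, Foxo1 at 0.57 and Ppp1r3c at 0.54, beside a median of 0.295 over all features. It was smallest for Pygl at 0.11, Tpi1 and Khk at 0.12, Gapdh at 0.14 and Fbp1 at 0.16. Gbe1 was detected in only 1 array of each group. Of the 10 genes with 2 detected probes, the probes differed in sign for Pfkl and Tpi1.

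A wider list of 124 other genes of these pathways, of which 79 were measured, was read in the same fit. It held 0 genes past an adjusted p of 0.25 by limma, and 43 had a higher and 36 a lower mean in AAV-Cre, with a median log2 difference of 0.02. At an unadjusted p under 0.05 there were 6 higher and 1 lower, 8.86% of the 79 beside 9.06% of all features. In 5 genes the groups did not overlap, beside 4.81% of all features: Slc25a10, Prkaca, Pdha1 and Taldo1 were higher in all AAV-Cre arrays and Mdh2 was lower. Taldo1, the transaldolase of the pentose phosphate pathway, is named because it completes this count, and it was chosen after its values were seen.

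The gene of this wider list with the smallest p was Slc25a10, a mitochondrial carrier that exchanges malate and succinate for phosphate. Its log2 signal was 12.01, 12.02, 12.37 and 12.17 in AAV-Cre replicates 1 to 4, against 11.42, 11.81, 11.37 and 11.35 in AAV-GFP replicates 1 to 4. All AAV-Cre arrays lay above all AAV-GFP arrays. The difference was 0.66 ± 0.15 (SE, n = 4 per group, adjusted p = 0.535, limma), and it was 0.53 without AAV-Cre replicates 3 and 4, and 0.55 when replicates 1 and 4 of AAV-GFP were left out.

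Mdh2, the mitochondrial malate dehydrogenase, had 11.64 to 12.33 in AAV-Cre arrays, against 12.34 to 12.58 in AAV-GFP arrays. All AAV-Cre arrays lay below all AAV-GFP arrays, though AAV-Cre replicate 2 and AAV-GFP replicate 2 were nearly level, and AAV-Cre replicates 3 and 4 were lowest, as they were for its cytosolic counterpart Mdh1. The difference was -0.58 ± 0.17 (SE, adjusted p = 0.535, limma), and it was -0.32 without AAV-Cre replicates 3 and 4.

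The remaining genes at an unadjusted p under 0.05 had higher means in AAV-Cre. Gpd1, the cytosolic glycerol-3-phosphate dehydrogenase, had 11.75, 11.27, 11.66 and 11.69 in AAV-Cre replicates 1 to 4, against 11.42, 10.95, 10.50 and 11.01 in AAV-GFP replicates 1 to 4, and differed by 0.62 ± 0.21 (SE, adjusted p = 0.535, limma). AAV-GFP replicate 1 lay above AAV-Cre replicate 2, so that the groups overlapped. Pik3r2, a regulatory subunit of phosphatidylinositol 3-kinase, differed by 0.49 ± 0.17 (SE), Stbd1, which binds glycogen to membranes, by 0.49 ± 0.18 (SE), Prkaca, a catalytic subunit of protein kinase A, by 0.26 ± 0.11 (SE) and Pdha1, a subunit of pyruvate dehydrogenase, by 0.32 ± 0.14 (SE). Their adjusted p was 0.535 in each case by limma. Where every detected probe was tested, a second Pik3r2 probe differed by 0.10 ± 0.23 (SE) and a second Prkaca probe by 0.16 ± 0.12 (SE). Prkaca spanned only 1.08-fold in AAV-Cre and 1.09-fold in AAV-GFP. Pdha1 differed by 0.16 without AAV-Cre replicates 3 and 4.

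**Figure D4:**
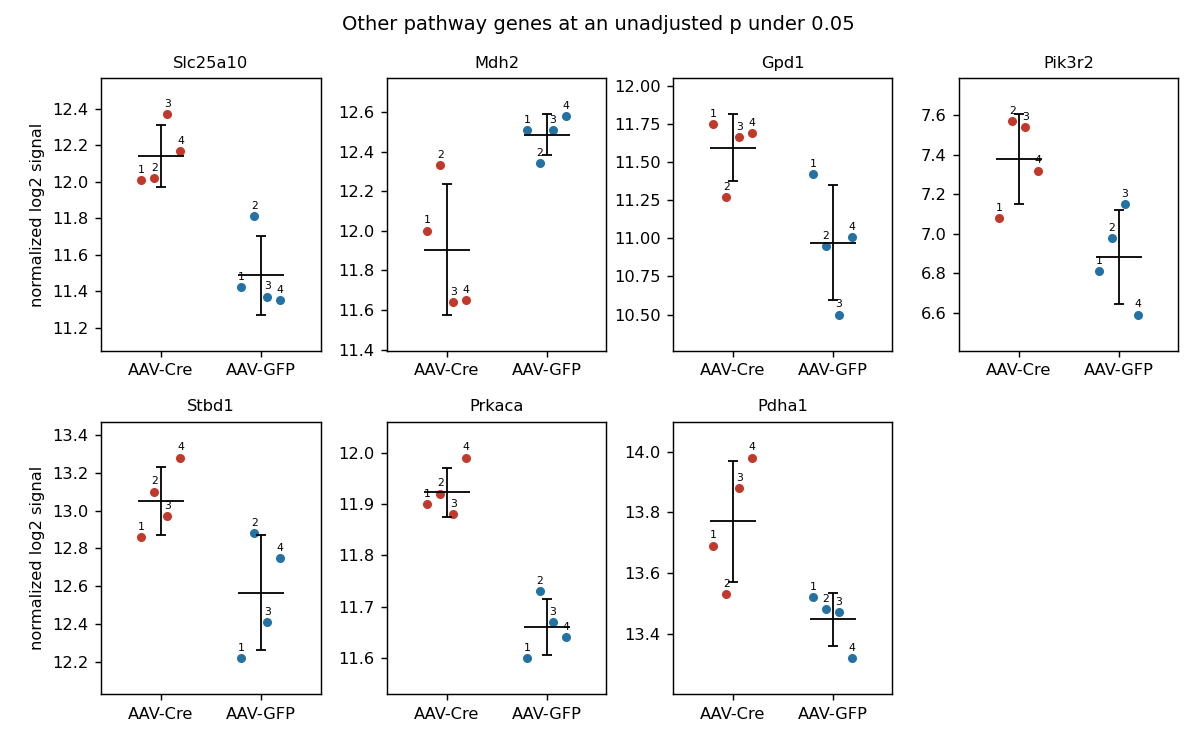
Normalized log2 signal (y axes, each with its own range) of the 7 other pathway genes at an unadjusted p under 0.05, in each AAV-Cre and AAV-GFP array, with the replicate number above each point and the mean and SD of 4 arrays as lines. The groups do not overlap for Slc25a10, Mdh2, Prkaca and Pdha1, and none of the 7 passed an adjusted p of 0.25.

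By role, the glycogen genes of the wider list had 15 measured with 9 higher and 6 lower means and a median of 0.03. Insulin response genes had 27 measured with 9 higher and 18 lower and a median of -0.06. Pentose phosphate genes had 5 measured with 4 higher and 1 lower and a median of 0.24. Gluconeogenesis genes had 12 measured with 7 higher and 5 lower and a median of 0.11. Of these 12, 25.0% had an unadjusted p under 0.05 by limma (2 higher and 1 lower), beside 9.06% of all features. Glycolysis genes had 6 measured with 5 higher and 1 lower, and malate and pyruvate genes 10 measured with 5 higher and 5 lower. Fructose and galactose had 2 measured genes each, all with higher means. These counts are descriptions of the lists, read beside 56.6% of all features with a higher mean.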

How the data were processed

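The authors amplified and biotin-labelled total RNA and hybridised it to Illumina MouseWG-6 v2 bead arrays. The deposited non-normalized table holds a linear intensity for each of 45281 probes and a deposited detection p-value against the negative control beads. A deposited value table, used as an alternative, holds the intensity of 16820 probes after quantile normalization by the authors. The platform annotation, which can be old, named only probes of this value table, and probes with several symbols were left unnamed. Symbols were updated to the RefSeq symbol of the same gene identifier where RefSeq listed it.

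From the raw intensities, normexp removed a background inferred from detection p-values, an offset of 16 was added, and arrays were quantile-normalized and log2-transformed by neqc in limma 3.58.1 (R 4.3.3). Probes detected in 1 or more arrays, 19618 in all, gave 14850 features, of which 9640 had a gene name. Groups were compared by lmFit and eBayes in limma with Benjamini-Hochberg adjustment, checked on simulated data. Limma was used in place of the SAM statistic of the study's methods, which was an alternative over 70 permutations. A log2 difference had a median standard error of 0.201. Arrays give no read depth, and their number, 4 a group, limits the precision. All measured genes of the list were named, and of the wider list those at an unadjusted p under 0.05. The members, lists, tests and alternatives were chosen with earlier results of these data known. The value of the second Pck1 probe without 2 arrays of a group was added after seeing these values. Alternatives changed background correction, offset, normalization, source of values, filter, probe choice, variance model, array weights, block, covariate and arrays used. Figures were drawn with matplotlib 3.10.9.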

Additional observations from a re-analysis of the deposited data

How the results depend on the processing

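Under 22 alternatives, 0 of the 28 genes passed an adjusted p of 0.25, and the lowest adjusted p was 0.311, for Mdh1 without AAV-Cre replicate 1. SAM called 0 of the 28 on both sets of values, among 28 and 312 features called. The count at an unadjusted p under 0.05, 1 with all arrays, was 2 with no background correction, with the authors' value table, with no detection filter and with an intensity trend and robust variance (Gapdh and Pgk1), and 2 with the replicate block (Mdh1 and Pgk1). Counting each gene's brighter probe, it was 0 with every detected probe tested (where the second Pck1 probe had an unadjusted p of 0.0337 by limma), with Xist as a term, without replicates 3 and 4 of AAV-Cre and without replicates 1 and 4 of AAV-GFP, and 0 to 2 as each array was left out. Pgk1 was no longer in it without AAV-Cre replicate 3 or 4, or without AAV-GFP replicate 1, 2 or 3. Mdh1 entered it without AAV-Cre replicate 1 and Ugp2 without AAV-Cre replicate 2. Pck1 was alone in it without AAV-GFP replicate 1, and Ugp2 without AAV-GFP replicate 2.

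Of 613 log2 differences under the alternatives 573 kept their sign, and 17 genes kept it throughout. Part of the 573 could not have turned, since some alternatives refitted the same values of the same probes and changed only the p-values. These were no detection filter, detection in a whole group, every detected probe tested, an intensity trend with robust variance, and the replicate block. Without AAV-Cre replicates 3 and 4 the sign turned for G6pc (-0.154), Pcx (-0.015), Pfkl (-0.119), Aldoa (-0.067) and Pdk2 (-0.168). Without AAV-GFP replicates 1 and 4 it turned for Tpi1 (-0.040), Gys2 (-0.399), Pygl (0.049), Ppp1r3b (0.043), Insr (0.031) and Pdk2 (-0.096). Xist as a term marked only those same arrays, as the ones where Xist was detected. Its log2 differences are therefore the same by construction and are not a separate check, though they are counted among the 613. Scaling to the 75th percentile turned Pfkfb3 (0.123) and Pygl (0.019), cyclic loess turned Tpi1 (-0.012), and array weights turned Gys2 (-0.058) and Pygl (0.0011). As each array was left out, values that changed sign ranged between -0.174 and 0.430 for G6pc, -0.046 and 0.151 for Pfkl, -0.191 and 0.146 for Pfkfb3, -0.184 and 0.182 for Gys2, -0.053 and 0.038 for Pygl, -0.244 and 0.044 for Ppp1r3b, -0.156 and 0.043 for Insr, and -0.034 and 0.508 for Pdk2. The cause was not tested.

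Whether the replicate numbers pair the samples is not settled by these values. The correlation of deviations from the group means between samples of the same number was 0.19, 0.065, 0.024 and 0.125. AAV-Cre replicates 1 and 4 correlated best with the AAV-GFP sample of the same number. AAV-Cre replicate 2 was level with AAV-GFP replicates 1 and 2 (0.065 each), and AAV-Cre replicate 3 correlated best with AAV-GFP replicate 2 (0.307).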
